A study of Medicago truncatula with 21 samples.

Results

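The difference between an ABI4 insertion line and R108 in seed transcripts was compared at 13 and 24 days after pollination (DAP). This interaction of genotype and stage was examined in 12 of 21 RNA sequencing libraries of the model legume Medicago truncatula. R108 is the wild-type line. The abi4-1 line (NF19813) carries an insertion of the retrotransposon Tnt1 in ABI4 in the same R108 background, and it is 1 insertion line. It was the only one at these stages, so other differences between the lines cannot be told apart from this insertion. Each genotype gave 3 libraries of whole seeds at 13 DAP and 3 at 24 DAP, from plants grown under the same light and temperature, with no further treatment named in the labels. For each identifier, the abi4-1 minus R108 difference at 13 DAP was subtracted from the same difference at 24 DAP, on a scale of log2(normalized count + 1). A positive value means that abi4-1 moved upwards relative to R108 from the first stage to the second. Of 44473 identifiers, 23225 reached 10 normalized counts in at least 3 of the 12 libraries and were tested.

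In Arabidopsis, ABI4 is known as an AP2/ERF transcription factor of abscisic acid and sugar signalling. Developing legume seeds pass from cell division and early growth into filling, when the embryo takes up sugars and amino acids and stores protein, oil and starch. Abscisic acid is a known regulator of filling and of the later preparation for drying. A stage comparison of this kind asks whether the seeds of the 2 genotypes followed the same course between an early and a later time of development.

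Library totals ran from 18365151 to 24032451 normalized counts, and 18787 to 22519 identifiers reached 10 in a library. The values had been scaled separately at each stage. A factor shared by all libraries of a stage drops out of the interaction, apart from its effect through the pseudocount on low values. Whole seeds were sequenced, so fewer cells of a type and less RNA per cell cannot be told apart. Identifiers come without gene names, and none matched the reference gene table, so neither the ABI4 transcript nor markers of embryo, endosperm and seed coat were examined, and no function is given for any identifier. The 5 most abundant transcripts of the 24 DAP libraries took 7.04, 1.45 and 4.16% of the R108 libraries at 13 DAP, and 2.02, 1.44 and 1.84% of the abi4-1 libraries. R108 replicates 1 and 3 at 13 DAP stood above the other 4 libraries of that stage. The part of this difference in the results was not tested, and the main counts are given with and without those libraries.

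The difference between the abi4-1 line and R108 changed between the stages for 1448 identifiers, 6.23% of those tested (limma, Benjamini-Hochberg adjusted p below 0.05). For 898 of them, 3.87% of those tested, the difference was more positive at 24 DAP, and for 550, or 2.37%, it was more negative. The positive differences had a median of 1.55 on the log2 scale, with quartiles of 0.98 and 2.26, and the negative ones had a median of -1.13, with quartiles of -1.95 and -0.75. Over all 23225 identifiers the median was -0.0068. Estimates of at least 2 were called for 294 identifiers, 1.27% of those tested, and estimates of -2 or lower for 125, or 0.538%. Beyond a size of 4 there were 40 positive and 7 negative calls, and beyond 5 there were 14 positive and 0 negative calls. Without R108 replicate 3 at 24 DAP the large calls numbered 274 positive and 279 negative, so the lean of the large calls towards positive rested on that library, and with a pseudocount of 10 the large calls were 133 and 54. The 2 identifiers just inside the threshold had estimates of -1.84 and -0.59 with adjusted p of 0.0498 and 0.0499, and the 2 just outside had -1.52 and -0.73 with 0.0501 for each.

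**Figure D1:**
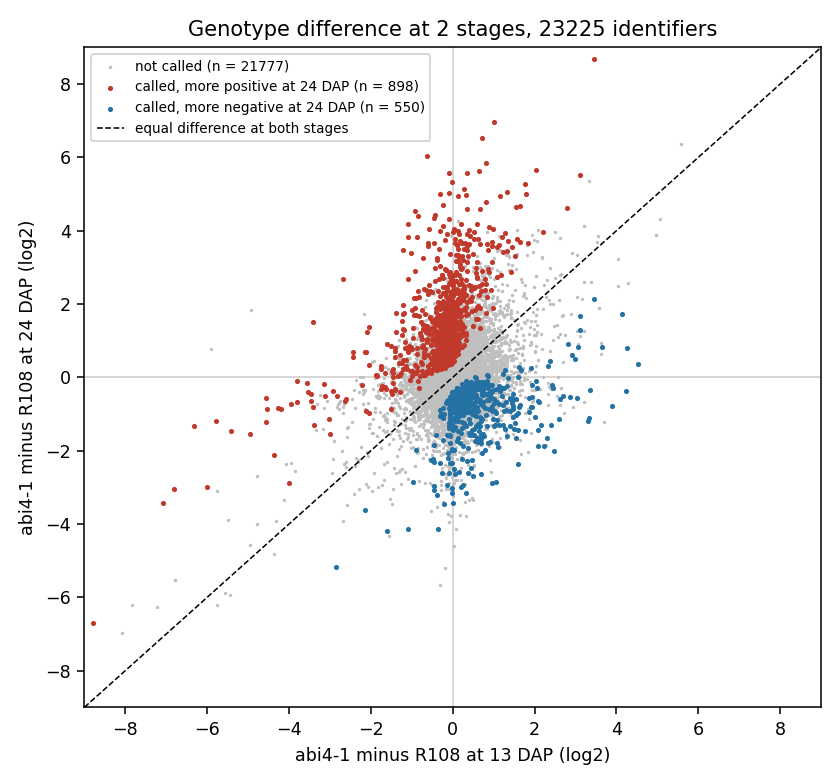
Each point is 1 of 23225 identifiers, with the abi4-1 minus R108 difference at 13 DAP on the x axis and at 24 DAP on the y axis, both on the log2 scale. The 898 red points, called more positive at 24 DAP, lie above the dashed line of equal differences, and the 550 blue points lie below it.

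These counts depended on single libraries. Without R108 replicate 3 at 13 DAP they were 581 and 288, and the negative calls numbered 354 without abi4-1 replicate 3 at 13 DAP and 358 without R108 replicate 1 at 24 DAP. Without R108 replicates 1 and 3 at 13 DAP together, which leaves 1 R108 library at that stage, whose spread is then taken to be like that of the other groups, 285 positive and 184 negative calls were made. With the replicate number as a block within each stage, the numbers rose to 1202 and 886, and 1380 of the 1448 calls were kept in the same direction. The negative calls also came to 886 with all 21 libraries in the fit (1134 calls shared). Library quality weights gave 1467 and 1086 calls (1434 shared). Called in the same direction in all 12 fits with 1 library left out were 545 positive and 243 negative identifiers, 54.4% of the calls, among them 218 of the 294 and 78 of the 125 large ones. The filter was not applied again in these fits. For identifiers that passed it only through the libraries where they were high, a kept call is no support, and their number was not counted.

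**Figure D2:**
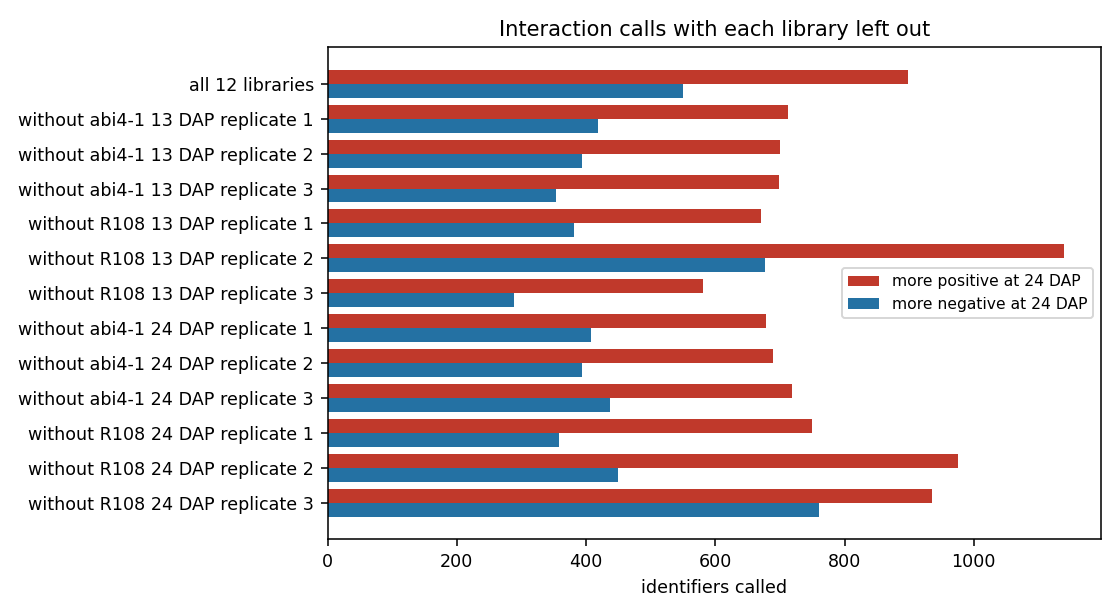
Bars give the number of identifiers called in the interaction, more positive (red) or more negative (blue) at 24 DAP, with all 12 libraries and with each library left out. The lowest numbers, 581 and 288, came without R108 replicate 3 at 13 DAP, and positive calls outnumbered negative ones in every fit shown.

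By the adjusted p at each stage, most called identifiers differed between the genotypes at 24 DAP and were not called at 13 DAP. With a log2 difference of at least 1 in place of the adjusted p this was no longer so for the 1448 calls together. Then 476 of the 898 positive and 122 of the 550 negative calls differed at 24 DAP and not at 13 DAP. These were a majority of the positive calls but not of the negative ones. In the same fit, 15.9% of all identifiers were called between genotypes at 24 DAP, 9.11% higher and 6.8% lower in abi4-1, and 2.78% at 13 DAP. Of the 898 positive interactions, 713 (79.4%) were higher in abi4-1 at 24 DAP with no call at 13 DAP, with median differences of 1.37 at 24 DAP and -0.092 at 13 DAP. Another 81 were lower in abi4-1 at 13 DAP with no call at 24 DAP, where their median difference had shrunk from -1.46 to 0.067. Of the 550 negative interactions, 361 (65.6%) were lower in abi4-1 at 24 DAP with no call at 13 DAP, with medians of -0.80 and 0.14. A further 88 (16.0%) were higher at 13 DAP with no call at 24 DAP, with medians of 1.24 and -0.29. Of the negative calls, those at 24 DAP alone numbered 200 without R108 replicate 3 at 13 DAP and 570 without R108 replicate 3 at 24 DAP. They numbered 225 and 230 without abi4-1 replicates 2 and 3 at 13 DAP, 233 without R108 replicate 1 at 13 DAP and 238 without R108 replicate 1 at 24 DAP. The positive calls at 13 DAP alone numbered 165 without R108 replicate 2 at that stage and 43 without R108 replicate 3, and the negative ones 149 and 40. Without abi4-1 replicates 1 and 3 at 13 DAP the latter were 55 and 49. The interaction and the differences at each stage use the same libraries, so these shares describe the calls and are no separate evidence.

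Smaller numbers of identifiers were called at both stages. The direction turned for 43 in all: 24 were lower in abi4-1 at 13 DAP and higher at 24 DAP, and 19 went the other way. These 43 became 86 without R108 replicate 2 at 13 DAP, 22 to 25 without R108 replicate 1 or 3 or abi4-1 replicate 3 at that stage, and 84 with the replicate block. Another 24 were higher in abi4-1 than in R108 at both stages, by more at 24 DAP, and 17 were lower at both, by less at 24 DAP. A further 5 were lower in abi4-1 at both stages, by more at 24 DAP, and 4 were higher at both, by less at 24 DAP. No call at either stage alone was made for 39 of the positive and 73 of the negative interactions, although the difference between stages passed.

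On a common scale, many of the positive calls were transcripts that went down in R108 between the stages and did not go down as far in abi4-1. For this description, all 12 libraries were brought to 1 scale by their median of ratios, and a course was called a rise or a fall where the mean log2 level moved by at least 1, and was said to hold otherwise. Of the 898 positive calls, 430 (47.9%) fell in R108, against 21.6% of all identifiers tested. A low R108 value at 24 DAP enters both the call and the fall, so these shares are a description. They also depend on the scale, and the shares on other scales, given below, lie closer together. Among these 430, 290 held in abi4-1, 60 rose and 80 fell. Of all identifiers tested, 993, 75 and 3946 took these courses. The 290 had median levels at 13 DAP of 178 in R108 and 179 in abi4-1, and at 24 DAP of 53.3 and 148. These medians follow in part from how the 290 were chosen, and are given as a description. The 60 were low transcripts, with medians at 13 DAP of 16.5 in R108 and 14.1 in abi4-1, and at 24 DAP of 3.80 and 68.3. They numbered 39 on values as deposited, 36 on column totals and 145 with a bound of 0.5.

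A second set of positive calls rose in abi4-1 while R108 stayed level. These were 181 identifiers, 22.7% of the 798 tested with that course, against 3.87% called more positive over all tested. Their medians at 13 DAP were 51.9 in R108 and 40.9 in abi4-1, and at 24 DAP 58.7 and 176. On values as deposited this class held 87 identifiers and on column totals 100. In 88 more (3.32% of 2653 tested), both genotypes rose, from 48.5 to 288 in R108 and from 36.7 to 502 in abi4-1. The remaining 199 (1.49% of 13354 tested) held in both by the bound used. The direction of a call and the course of the genotypes come from the same values and are tied to each other. The split also rests on the scale between stages: on values as deposited 76.6% of all identifiers fell in R108 and on column totals 71.3%, against 82.7 and 81.0% of the positive calls.

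The negative calls also fell into several courses. In 126, R108 held and abi4-1 fell, with medians of 231 and 312 at 13 DAP and of 175 and 91.0 at 24 DAP, R108 first. They were 14.2% of the 885 identifiers tested with that course, against 2.37% called more negative over all tested. In 71, R108 rose and abi4-1 held, from 69.0 to 205 in R108 and from 145 to 152 in abi4-1. They were 14.2% of the 499 tested with that course. The class held 48 calls on values as deposited, 50 on column totals and 86 with a bound of 0.5. Both genotypes rose in 81 (3.05% of 2653 tested), from 25.8 to 503 in R108 and from 54.3 to 327 in abi4-1. In the sets of 71 and 81 the abi4-1 median was above R108 at 13 DAP and below it at 24 DAP. A smaller abi4-1 increase follows from the choice of negative calls and is no separate result. Both fell in 95 (2.41% of 3946 tested), from 530 to 111 in R108 and from 630 to 55.1 in abi4-1. R108 rose and abi4-1 fell in 14 (63.6% of 22 tested), and 163 (1.22% of 13354) held in both. Course and call come from the same values, so these shares and medians are a description.

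**Figure D3:**
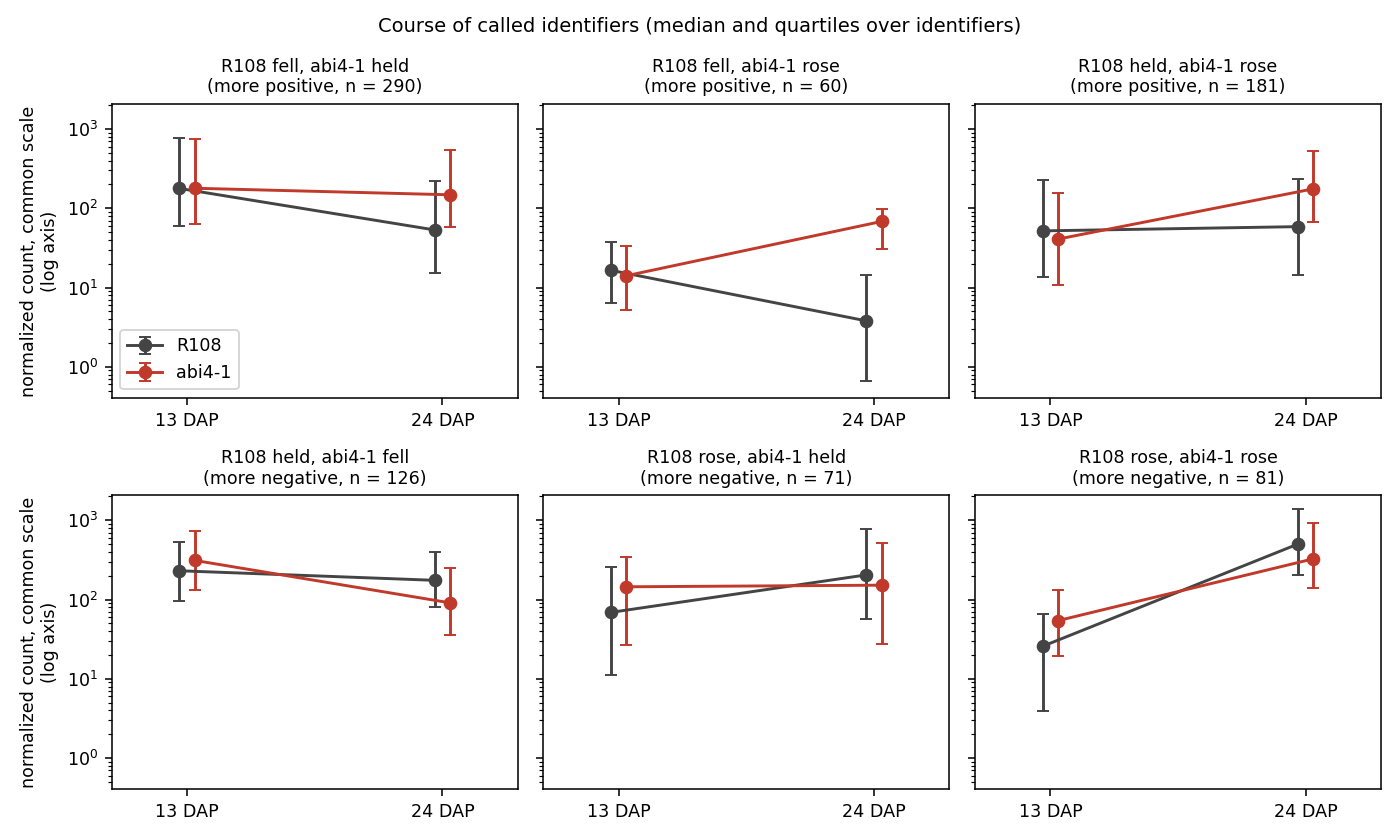
Points and bars give the median and quartiles, over identifiers, of the group means on the common scale (log axis) at 13 and 24 DAP, for 6 courses of called identifiers in R108 (grey) and abi4-1 (red). In the 290 identifiers that fell in R108 and held in abi4-1 the medians start together, near 178, and end at 53.3 and 148.

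Some identifiers were near-absent in one genotype at one of the stages. At 24 DAP, 68 identifiers stayed below 3 normalized counts in all R108 libraries but reached 10 in all abi4-1 libraries, and 45 of them were called more positive in the interaction, against 3.87% of all identifiers tested. These states and the interaction use the same libraries, so the counts of calls here are a description from which nothing is read. Of the 68, 15 were at 10 or more in every library of both genotypes at 13 DAP, and 12 were below 3 in all of those libraries. Of these 15 and 12, 13 and 11 were called more positive. The opposite state at 24 DAP, present in R108 and near-absent in abi4-1, held for 20 identifiers, of which 6 were called more negative, against 2.37% of all tested, and 2 more positive. At 13 DAP, 22 identifiers were present in R108 and near-absent in abi4-1, and 13 of them were called more positive. Of the 22, 0 were present in both genotypes at 24 DAP and 6 were near-absent in both. The opposite state at 13 DAP held for 6 identifiers, of which 2 were called more negative.

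The 4 identifiers named here were the 2 most positive and the 2 most negative estimates among called identifiers with a group mean of at least 100. MtrunA17_Chr4g0055561, on chromosome 4, stood at 3.70, 3.57 and 1.00 normalized counts in R108 and at 1.09, 1.83 and 0.92 in abi4-1 at 13 DAP. At 24 DAP it stood at 0, 2.21 and 2.33 in R108 and at 125, 137.3 and 173 in abi4-1. All 3 abi4-1 libraries at 24 DAP lay far above the other 9, which ran from 0 to 3.70. The interaction was 6.68 ± 0.71 (SE) and depends on the pseudocount, at 8.35 with 0.1 and 3.92 with 10. The identifier passed the filter on low values through the 3 libraries where it was high, so it had to differ and no p is given. In mature seeds, whose libraries the interaction did not use, R108 had 17.1 ± 3.27 normalized counts of this identifier, against 60.1 ± 7.68 in abi4-1 and 50.7 ± 6.29 in abi4-2 (SD, n = 3).

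MtrunA17_Chr6g0465441, on chromosome 6, was listed at 0, 1.86 and 0 in R108 and at 1.09, 0.91 and 4.73 in abi4-1 at 13 DAP. At 24 DAP it was listed at 0 in each R108 library and at 132.1, 114.8 and 127.3 in abi4-1. The groups did not overlap at 24 DAP and did at 13 DAP. The fitted interaction was 5.97 ± 0.73 (SE), at 7.55 with a pseudocount of 0.1 and 3.55 with 10, and it is no bound on a fold, since R108 was listed at 0. This identifier too passed the filter through the 3 abi4-1 libraries at 24 DAP, and no p is given. Unlike the identifier before it, it was listed at 0 in all 9 mature libraries, so its signal was seen at 24 DAP in abi4-1 and not in mature seeds of either allele.

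MtrunA17_Chr8g0385301, on chromosome 8, changed direction. At 13 DAP it stood at 46.94, 67.58 and 33.57 in R108 and at 704.3, 357.0 and 432.5 in abi4-1. At 24 DAP it stood at 23580, 22170 and 27400 in R108 and at 10920, 8157 and 13580 in abi4-1. The groups did not overlap at either stage: abi4-1 was above R108 at the first and below it at the second. The differences were 3.30 ± 0.27 at 13 DAP (SE, limma adjusted p = 9.6e-06) and -1.19 ± 0.27 at 24 DAP (adjusted p = 0.00828), and the interaction was -4.49 ± 0.38 (adjusted p = 3.4e-05). The transcript rose in both genotypes between the stages and was among the abundant ones at the second. In mature seeds R108 had 663 ± 24.5, against 1000 ± 423 in abi4-1 and 700 ± 63.6 in abi4-2 (SD, n = 3). The mature difference was 0.51 ± 0.20 in abi4-1 (SE, limma adjusted p = 0.0458) and 0.074 ± 0.20 in abi4-2 (adjusted p = 0.791). The lower level of abi4-1 at 24 DAP was thus not seen at maturity.

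MtrunA17_Chr4g0072671, on chromosome 4, stood at 20.87, 254.5 and 31.06 in R108 and at 1381, 412.8 and 1033 in abi4-1 at 13 DAP. At 24 DAP it stood at 9.84, 11.95 and 13.29 in R108 and at 5.27, 5.77 and 8.55 in abi4-1. The difference of 3.90 ± 0.70 at 13 DAP (SE, limma adjusted p = 0.0073) compared with one of -0.77 ± 0.70 at 24 DAP that did not pass (adjusted p = 0.522). The interaction was -4.67 ± 1.00 (adjusted p = 0.0138). The groups did not overlap at 13 DAP, but R108 replicate 2 lay nearer to the lowest abi4-1 library than to the other R108 libraries. Without R108 replicates 1 and 3 the interaction was -2.48 and lost its call (adjusted p = 0.0916). Without those libraries the interaction was 7.06 for MtrunA17_Chr4g0055561, 6.98 for MtrunA17_Chr6g0465441 and -3.99 for MtrunA17_Chr8g0385301. All 4 identifiers kept their calls in each of the 12 fits with 1 library left out. The filter was not applied again in those fits. For MtrunA17_Chr4g0055561 and MtrunA17_Chr6g0465441, which passed it through the libraries where they were high, the kept calls are no support.

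**Figure D4:**
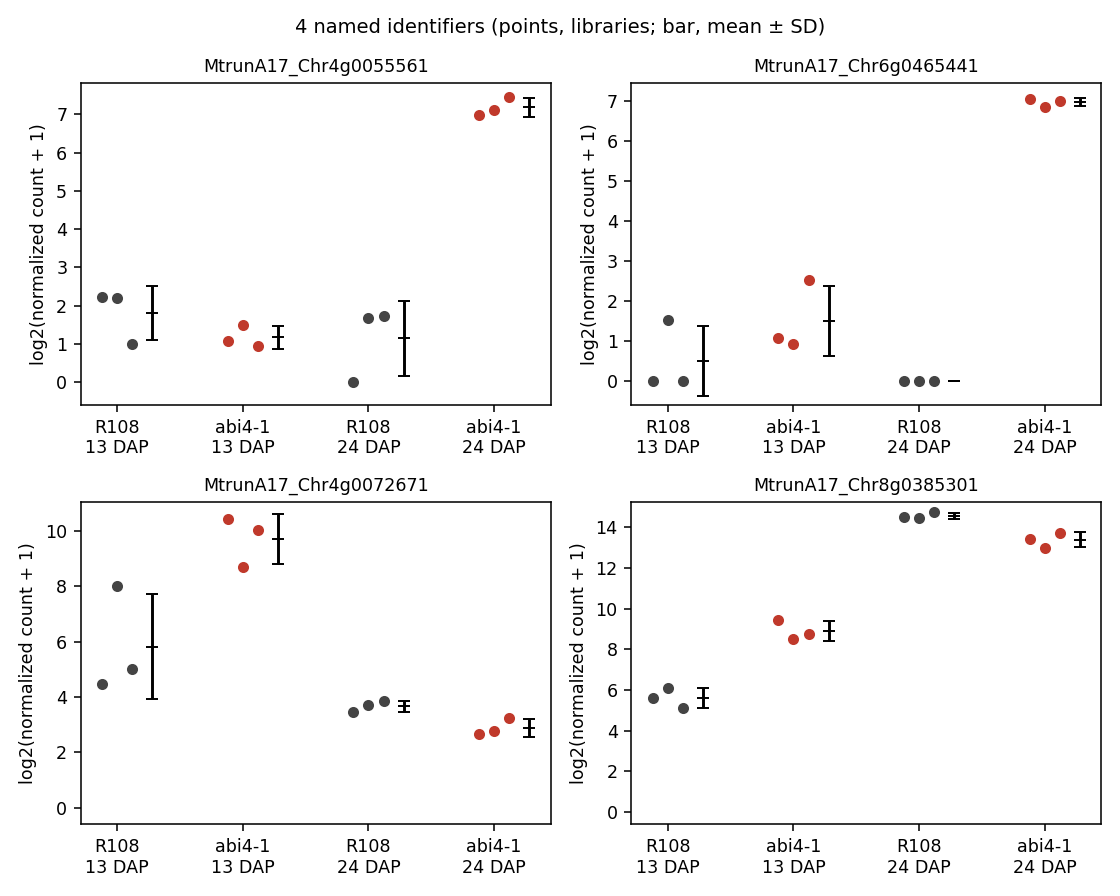
The log2(normalized count + 1) of the 4 named identifiers is shown in each of the 12 libraries (points; grey R108, red abi4-1), with the mean and SD of each group beside them. The upper panels show identifiers high in the 3 abi4-1 libraries at 24 DAP, and the lower panels show identifiers higher in abi4-1 at 13 DAP.

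Calls were spread over levels and chromosomes. The share called was 4.17% of identifiers with a mean below 30 normalized counts, between 5.68 and 7.21% in the next 4 ranges up to 3000, and 9.30% of the 785 at 3000 or above, where 56 were more positive and 17 more negative. The median size of called estimates fell from 2.82 below 30 to 0.90 between 300 and 1000, and was 1.40 at 3000 or above. Between 300 and 1000 the directions were closest to even, with 220 positive and 203 negative calls, and below 30 there were 139 and 52. By chromosome the share called ran from 5.73% on chromosome 2 to 7.28% on chromosome 3. Among 23069 pairs of neighbouring tested identifiers on a chromosome, in the order of their numbers, 80 were both more positive, 27 both more negative and 29 opposite. Over all identifiers tested, 3.87% were called more positive and 2.37% more negative. The number of such pairs that these shares would give was not computed, so nothing is read from the counts. Runs of neighbours called in the same direction held 147 of the positive and 51 of the negative calls, with 4 identifiers in the longest. Neighbours that overlap, lie antisense or are near-identical copies could share reads, since the sources used here give neither the strand nor the treatment of shared reads.

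Transcripts of the organelles showed no call: 0 of 74 plastid and 0 of 26 mitochondrial identifiers passed limma, with 2 and 1 at an unadjusted p below 0.05. Of all identifiers tested, 6.23% were called. Why the organelle lists held no call was not tested, and nothing is read from it. As shares of the library, the plastid difference of differences was -0.0155 percentage points (two-sided exact permutation p = 0.72) and the mitochondrial one 0.000228 (exact p = 0.84). For the 5 transcripts that lead at 24 DAP it was 2.71 percentage points (exact p = 0.23), from -2.45 at 13 DAP and 0.26 at 24 DAP. Adjusted over these 3 measures the p-values were 0.84, 0.84 and 0.69. The smallest p that the 400 arrangements of genotype within stage allow is 0.005.

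The mature libraries were not used in the interaction, so they show where the called identifiers stood later. Of the 17548 identifiers tested in both fits, 24.1% were higher and 23.2% lower in mature abi4-1 than in mature R108. Of 605 positive interactions, 293 (48.4%) were higher and 76 (12.6%) lower, with a median log2 difference of 0.39. In mature abi4-2, the line with another insertion (NF2525), 249 (41.2%) were higher and 89 (14.7%) lower, against 21.7 and 21.4% of the 17548, with a median of 0.28. Both alleles were compared with the same 3 mature R108 libraries. Of the 898 positive calls 293 were too low in mature seeds to be tested, and nothing is said of them here. An identifier could pass the filter in mature seeds through mutant libraries alone, which favours higher calls, and the part of this was not tested.

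The negative interactions did not lean to one side at maturity. Of the 550 negative calls, 407 could be tested in mature seeds. Of these, 117 (28.7%) were higher and 126 (31.0%) lower in mature abi4-1, with a median of -0.034. In mature abi4-2, 124 (30.5%) were higher and 117 (28.7%) lower. Over all identifiers tested in both fits, 24.1% were higher and 23.2% lower in abi4-1, and 21.7 and 21.4% in abi4-2. Among the 71 that rose in R108 and held in abi4-1, 49 were tested. Of these, 20 (40.8%) were higher and 10 (20.4%) lower in mature abi4-1, and 24 (49.0%) and 7 (14.3%) in abi4-2. Of 334 uncalled identifiers of the same course, 76 (22.8%) were higher and 94 (28.1%) lower in abi4-1. In abi4-2 these were 61 (18.3%) and 99 (29.6%). Of the 125 large negative ones, 55 were tested. Of these, 21 (38.2%) were higher and 12 (21.8%) lower in mature abi4-1, and 21 (38.2%) and 6 (10.9%) in abi4-2. In these 2 sets, more identifiers were higher than lower in both mature alleles, against the direction of the interaction. Passing the filter in mature seeds through mutant libraries alone favours higher calls, and the part of this was not tested.

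Among transcripts that declined in R108 and could be tested at maturity, more were higher than lower in mature mutants, called or not. These were 1626 of 4489 uncalled identifiers and 251 of 430 called more positive. A transcript high in mutant libraries alone could pass the filter in mature seeds, which favours higher calls. How much of the lean comes from this was not tested. Of 1626 uncalled identifiers that fell in R108 between 13 and 24 DAP, 503 (30.9%) were higher and 207 (12.7%) lower in mature abi4-1, and 522 (32.1%) and 187 (11.5%) in abi4-2. Of 251 that fell and were called more positive, 137 (54.6%) were higher and 24 (9.56%) lower in abi4-1, and 110 (43.8%) and 23 (9.16%) in abi4-2. The medians were 0.69 against 0.18 in abi4-1 and 0.43 against 0.22 in abi4-2, called against uncalled. These shares are descriptions over identifiers, which are not independent replicates, and the differences between them were not tested.

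**Figure D5:**
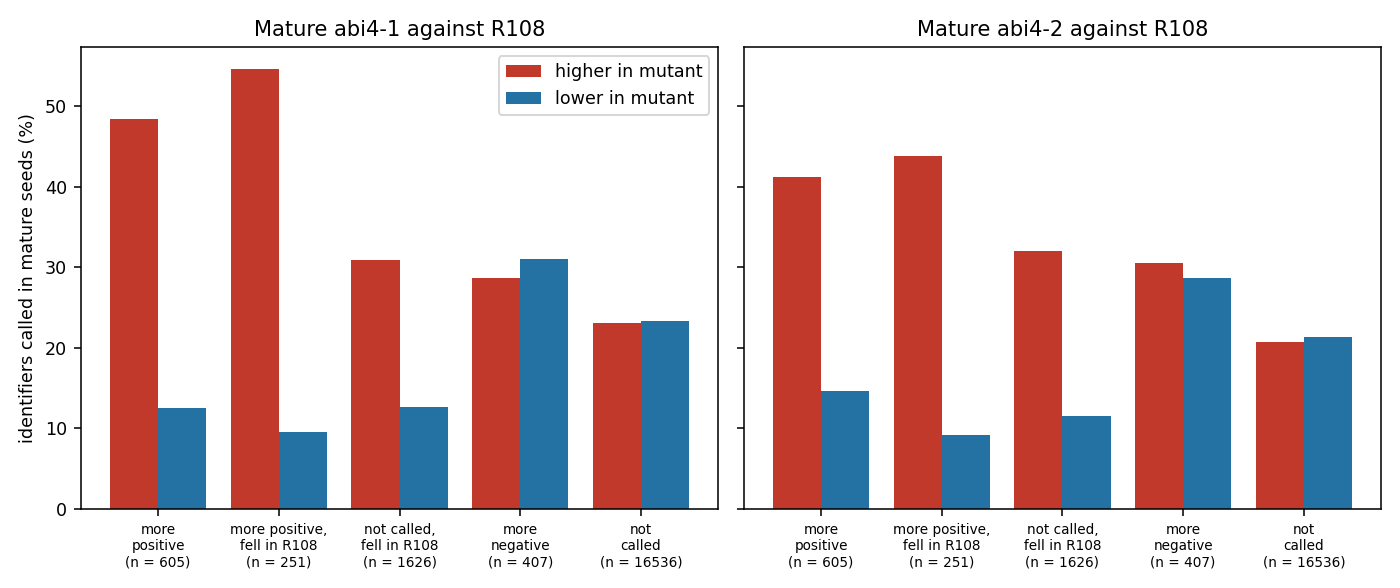
Bars give the percentage of identifiers called higher (red) or lower (blue) in mature abi4-1 and abi4-2 seeds than in mature R108, for sets defined by the interaction between 13 and 24 DAP. Among positive interactions 48.4% were higher in abi4-1 and 41.2% in abi4-2, and among negative ones the higher and lower bars are of similar height.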

How the data were processed

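RNA of whole Medicago truncatula seeds was sequenced as short single reads on a BGISEQ-500 instrument after mRNA enrichment and random priming, per the labels' protocols. Per the submitters' processing notes, Salmon was used. Its version, the annotation, the genome build and the tool for normalization were not given in the sources used here. What the authors deposited under the name FPKM is a signal that behaves as normalized read counts, scaled separately at each stage: factors over the 12 libraries were 1.73 to 1.75 at 13 DAP and 0.581 to 0.587 at 24 DAP. A low value therefore meets the filter and the pseudocount at different depths at the 2 stages.

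Sample titles gave the groups and replicate numbers. The series' design text names insertion lines of another gene, and the sample labels were followed. It speaks of seeds from different plants. Should that not hold here, the p-values reflect the spread among these libraries, which may be technical. Replicate pairs had log2 correlations of 0.966 to 0.985, and each pair differed by more than sampling noise, with a chi-square per identifier of at least 7.58.

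The interaction was fitted in R 4.3.3 with limma 3.58.1 and an intensity trend, on log2(value + 1) over 12 libraries with a mean for each of 4 groups. Identifiers with at least 10 in at least 3 libraries were kept, and a Benjamini-Hochberg adjusted p below 0.05 over all of them is a call. Stage differences come from the same fit, and mature differences from a fit of 9 libraries. The script was tested on simulated data. The members, classes and named-identifier rule were chosen with earlier results of these data known. Lists of genes by function and cell type markers were not run, since no identifier could be paired with a name, and 21248 identifiers below the filter were not tested. The interaction's 4 named identifiers follow the rule given in the text.

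Same-numbered abi4-1 and R108 libraries deviated together from their group means. Their correlations were 0.154 to 0.293 at 13 DAP and 0.102 to 0.339 at 24 DAP over identifiers kept at that stage. Over the 23225 identifiers tested they were 0.162 to 0.262 and 0.0782 to 0.23. Numbers were taken as pairs within a stage only in the fit with the replicate block, which gave 1202 positive and 886 negative calls. The main fit, with 898 and 550, and the exact permutations did not use the pairs. Alternatives covered the pseudocount, the filter, scaling, the block, the libraries fitted, the trend and library weights.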

Additional observations from a re-analysis of the deposited data

Results flagged for a closer look

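The difference between stages itself passed the test for 898 identifiers in the positive and 550 in the negative direction. Among the 4 named, it was 6.68 for MtrunA17_Chr4g0055561 and 5.97 for MtrunA17_Chr6g0465441, both below 5 normalized counts in 9 of the 12 libraries and above 100 in abi4-1 at 24 DAP. It was -4.67 for MtrunA17_Chr4g0072671, whose 3 R108 libraries at 13 DAP ran from 20.87 to 254.5. For MtrunA17_Chr8g0385301 it was -4.49, with opposite calls at the 2 stages.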

How the results depend on the processing

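Positive calls outnumbered negative ones under every alternative run, at 54.7 to 68.5% of calls, but large calls did not without R108 replicate 3 at 24 DAP (274 against 279). With 1 library left out, positive calls numbered 581 to 1140, negative calls 288 to 760, large positive calls 235 to 367 and large negative calls 91 to 279. The same omissions gave 489 to 809 positive and 200 to 570 negative calls at 24 DAP alone, 43 to 165 positive and 40 to 149 negative calls at 13 DAP alone, and 22 to 86 with opposite signs. The share of the 5 leading transcripts differed by 1.30 to 4.09 percentage points (exact permutation p from 0.07 to 0.415).

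With a pseudocount of 10, large calls were 133 positive and 54 negative, and calls at 13 DAP alone were 138 and 147. A filter of 100 gave 134 and 64 large calls. The replicate block gave 886 negative calls, 605 of them at 24 DAP alone, and 84 with opposite signs. It did not end the calls of MtrunA17_Chr4g0072671 and MtrunA17_Chr8g0385301. All 21 libraries gave 886, 605 and 71. Library weights gave 1467 positive and 1086 negative calls, 236 large negative ones, 588 negative at 24 DAP alone, 237 and 296 at 13 DAP alone, and 155 with opposite signs. With a difference of at least 1 in place of the adjusted p, 476 positive and 122 negative calls were at 24 DAP alone. Without R108 replicates 1 and 3 at 13 DAP, an alternative chosen after seeing the data, calls were 285 and 184, large calls 144 and 70, calls at 24 DAP alone 246 and 90, calls at 13 DAP alone 13 and 56, and opposite signs 11, and MtrunA17_Chr4g0072671 stood at -2.48 (adjusted p = 0.0916; 0.000139 to 0.0916 over its alternatives). The causes were not tested.

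The scales and the bound of 0.5 for the courses and upper-quartile scaling of mature seeds were also chosen after seeing the data. Those that fell in R108 and rose in abi4-1 then numbered 36 to 145, and those that held in R108 and rose in abi4-1 fell to 87 as deposited and 100 with column totals. With upper-quartile scaling, 49.1% of positive interactions were higher in mature abi4-1, against 25.4% of all.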
